A study of Mus musculus with 12 samples.

Results

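The BAFF receptor, CD40 and NF-κB route was followed through 10 genes in splenic B lymphocytes of the mouse. They were taken by symbol from a list and make up 10 of the 24982 gene symbols in the files: the receptors Tnfrsf13b (TACI), Tnfrsf13c (BAFF receptor) and Cd40, the adaptors Traf1 and Traf3, the NF-κB subunits Nfkb1, Nfkb2, Rel and Relb, and the inhibitor Nfkbia (IκBα). Their polyadenylated RNA was read in 12 libraries from mice 6 weeks old, 4 for each of 3 genotypes, and the labels call the 4 of a genotype biological replicates. WT mice were C57BL/J6. Eμ-Myc mice carry a Myc transgene driven by the immunoglobulin heavy-chain enhancer, which acts in B lineage cells. Mice of the third genotype, Eμ-Myc; PRPS2 KO, carry the same transgene and lack PRPS2, an enzyme that makes the ribose phosphate precursor of nucleotides. They are called the PRPS2 KO group below. The series set out to list the genes that Myc deregulates and to ask whether loss of PRPS2 touches that program. How B cells were isolated, how the Prps2 gene was disrupted, and whether mice were pooled are not given in the sources used here.

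BAFF is a survival signal for peripheral B cells, read mainly by the BAFF receptor, while CD40 receives help from T cells. Both receptors act through TRAF adaptors: TRAF3 holds the kinase NIK at a low level until the receptor is engaged, after which p100, the product of Nfkb2, is processed and pairs with RelB (the non-canonical route). In the canonical route IκBα is degraded and frees dimers of p50 (from Nfkb1), RelA and c-Rel. Nfkbia, Nfkb2, Relb and Traf1 are themselves well-known NF-κB targets, and the BAFF receptor rises as B cells mature.

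Values are coverage per gene as deposited, divided by a scaling factor per library, and the unit is called scaled coverage below. A difference was tested with limma, on log2(scaled coverage + 0.5), over all genes with at least 1 unit in at least 4 of the 8 libraries compared, and was called at a Benjamini-Hochberg adjusted p under 0.05. The 10 genes passed that filter in all 3 comparisons. Scaled coverage of Prps2 was 98.0 to 140 in WT, 198 to 287 in Eμ-Myc and 16.2 to 18.3 in PRPS2 KO libraries, in accord with the labels, and Myc lay at 226 to 346, 1557 to 2302 and 1099 to 3283. The 7 B lineage markers summed to between 5992 and 11629 in every library. The PRPS2 KO libraries stood apart from each other: libraries 3 and 4 differed from each other by a standard deviation of 0.16 in log2 over 5275 well covered genes, and from libraries 1 and 2 by between 1.00 and 1.18, while the largest such value within WT or Eμ-Myc was 0.55. The main counts that rest on this group are therefore given with and without each pair.

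In 4 of the genes the 250 bases before a start site carry the sequence motif that NF-κB itself binds, and those stretches are shown here because the 10 genes include both the factor and its own known targets. The κB consensus was searched on both strands as GGG, a purine, any 2 bases, 2 pyrimidines and CC, in RefSeq promoters of build GRCm38.p6. The promoter table held 7 of the 10 genes, and 4 of these 7 (57.1%) held a match: Traf3, Nfkb2, Rel and Nfkbia. A match was held by 8.23% of the 27025 genes in the table and by 10.5% of those tested in Eμ-Myc against WT. Among 45 further pathway genes, from the list described below, 12 (26.7%) held one. The motif of Myc and its partner Max, CACGTG, was in no window of the 7 genes and in 6.86% of all genes. These matches are descriptions of the letters, and no binding was measured. The stretches below run 5′ to 3′ on the strand of the gene, with the consensus in capitals, and none overlaps an annotated exon.
Traf3 (chr12:111166340-111166369, plus strand): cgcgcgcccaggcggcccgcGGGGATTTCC
Rel (chr11:23771031-23771081, minus strand): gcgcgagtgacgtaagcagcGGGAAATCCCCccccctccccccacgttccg
Nfkbia (chr12:55492648-55492696, minus strand): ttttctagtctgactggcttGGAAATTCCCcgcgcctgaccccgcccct
The match of Traf3 ends 1 base before the start and that of Nfkbia 20 bases before it, and the capitals of Rel hold 2 overlapping matches that end 83 and 82 bases before it. Windows of Nfkb2 overlap annotated exons, so only matches are given: GGGAATTCCC ends 30 bases before one listed start and GGGACTTTCC ends 216 bases before another. Its other matches end 29 and 2 bases before the first of these starts and 227 bases before a further listed start.

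Eμ-Myc libraries had a lower scaled coverage of most of this route than WT libraries. By limma 8 of the 10 genes were lower, and none was higher. The fall was deepest in Traf1 (3.77-fold), Nfkb2 (3.20-fold) and Relb (2.75-fold), 2.16- to 2.24-fold in Tnfrsf13c, Cd40, Rel and Nfkbia, and 1.74-fold in Nfkb1, while Tnfrsf13b and Traf3 did not pass. Of all 12704 genes tested 55.2% were called, and 24.7% were called lower, and the median log2 difference of the 10 genes was -1.13 against -0.01 over all genes. In 8 of the 10 genes every Eμ-Myc library lay below every WT library, which held for 22.8% of all genes tested. One fit over all 12 libraries, in which the PRPS2 KO group adds to the common estimate of spread, called 4 of the 10 and not Traf1, Nfkb2, Relb or Nfkbia (adjusted p = 0.0592 to 0.0862), beside 43.0% of all genes. In bulk RNA, fewer cells that express a gene and less RNA per cell cannot be told apart. Scaled coverage is also relative to the other genes of a library, and the total RNA of a cell was not measured.

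**Figure D1:**
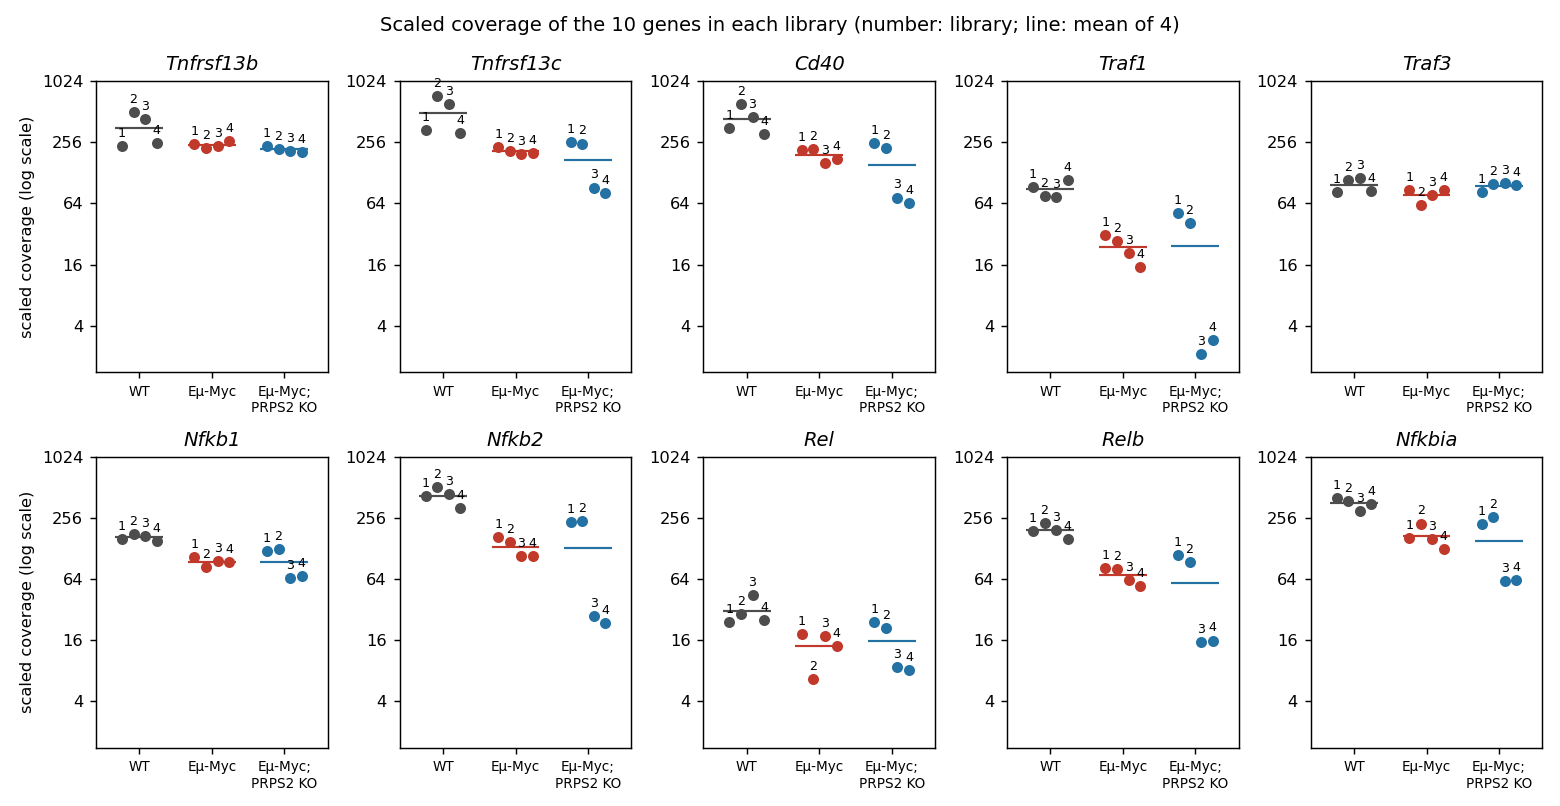
Scaled coverage of the 10 genes in each of the 12 libraries (log axis), with points numbered by library and a line at the mean of the 4 libraries of a genotype. Traf1, Nfkb2 and Relb lie lower in Eμ-Myc than in WT, and PRPS2 KO libraries 3 and 4 lie far below libraries 1 and 2.

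Among the receptors, Tnfrsf13c (chr15:82221743-82224369, minus strand, GRCm38), the main survival receptor for BAFF, had a scaled coverage of 338.4, 723.2, 607.2 and 316.9 in WT libraries 1 to 4 and of 230.6, 208.3, 194.9 and 199.3 in Eμ-Myc libraries 1 to 4. WT libraries 2 and 3 were higher than libraries 1 and 4, and all 4 stood above the Eμ-Myc libraries. Its mean fell from 496 ± 201 (SD, n = 4) to 208 ± 15.9 (SD, n = 4), a log2 difference of -1.16 (SE 0.26, limma adjusted p = 0.00434). Cd40 (chr2:165055627-165072948, plus strand), the receptor for the CD40 ligand of T cells, read 354.2, 603, 448.5 and 309.4 in WT and 214.7, 217, 158.4 and 175.9 in Eμ-Myc. Again the groups did not overlap, and the same WT libraries were highest. The log2 difference was -1.13 (SE 0.21, limma adjusted p = 0.00139). Tnfrsf13b (chr11:61126755-61149372, plus strand), which encodes TACI, another receptor for BAFF and for APRIL, read 234.3, 507.8, 432.7 and 249.2 in WT and 243.5, 225.5, 234.4 and 265.2 in Eμ-Myc. WT libraries 1 and 4 lay within the Eμ-Myc range. Its log2 difference of -0.48 (95% interval -1.02 to 0.07) did not pass (limma adjusted p = 0.121), and it did without WT library 1 (-0.65, adjusted p = 0.0363). Over all alternatives its adjusted p ran from 0.000584 to 0.281.

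The WT pair that was high for the 3 receptors was also high for B lineage markers as a whole. The 7 markers summed to 11629 and 9896 in WT libraries 2 and 3, to 6162 and 5992 in libraries 1 and 4, and to 6903 to 8544 in Eμ-Myc. The part of this in the receptors' spread was not tested. Without WT libraries 1 and 4, a choice made after seeing the data, all 10 genes were called lower, among 50.7% of all genes called in either direction, with Tnfrsf13b at -0.95 (adjusted p = 0.000584) and Traf3 at -0.53 (adjusted p = 0.0256).

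The adaptors went apart. Traf1 (chr2:34941750-34961772, minus strand), an adaptor that sustains signals of CD40 and related receptors, read 93.3, 76.3, 73.7 and 109.1 in WT and 31, 27.4, 20.8 and 15 in Eμ-Myc. Its lowest WT value was far above the highest Eμ-Myc value. The mean went from 88.1 ± 16.5 to 23.6 ± 7.12 (SD, n = 4 each), with a log2 difference of -1.91 (SE 0.23, limma adjusted p = 0.000112). Traf3 (chr12:111166370-111267153, plus strand), the brake on NIK, read 82, 108.4, 114.4 and 85 in WT and 86.1, 61.1, 77.8 and 86.4 in Eμ-Myc. These values overlapped, and the log2 difference of -0.32 (95% interval -0.67 to 0.03) did not pass (limma adjusted p = 0.103). It was called when libraries were scaled by their summed coverage (-0.50, adjusted p = 0.0418), and over all alternatives its adjusted p ran from 0.00695 to 0.523.

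All 4 subunits among the genes fell. Nfkb2 (chr19:46304320-46312385, plus strand), the source of p100 and p52, read 416.1, 515.7, 437.6 and 320.3 in WT and 167.2, 148.1, 107.4 and 106.9 in Eμ-Myc. It fell from 422 ± 80.5 to 132 ± 30.2 (SD, n = 4 each), a log2 difference of -1.68 (SE 0.19, limma adjusted p = 8.16e-05). Of its 4584 exon bases 830 (18.1%) are shared with genes on the opposite strand, Psd and a long non-coding gene, and whether the counting used strand is not given in the sources used here. Relb (chr7:19606217-19629438, minus strand), the partner of p52, read 189.4, 230.1, 193.2 and 157.4 in WT and 82.4, 80.4, 62 and 55.1 in Eμ-Myc. Both genes of this non-canonical pair separated cleanly by genotype. The log2 difference of Relb was -1.46 (SE 0.16, limma adjusted p = 7.59e-05).

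In the canonical arm, Nfkb1 (chr3:135584655-135691547, minus strand), the source of p105 and p50, read 159.3, 177.3, 170.9 and 151.6 in WT and 105.9, 83.4, 95.7 and 93.2 in Eμ-Myc. The WT libraries differed least in this gene, by a ratio of 1.17, and its change was the smallest of the 8 that fell, at -0.80 (SE 0.10, limma adjusted p = 0.000171). Rel (chr11:23736847-23770970, minus strand), which encodes c-Rel, read 24.4, 28.9, 44.3 and 25.4 in WT and 18.6, 6.6, 17.7 and 14 in Eμ-Myc. No Eμ-Myc library reached the lowest WT library of Rel, and its log2 difference was -1.14 (SE 0.32, limma adjusted p = 0.0146). Nfkbia (chr12:55489410-55492647, minus strand), the inhibitor that canonical NF-κB induces against itself, read 402.1, 373.5, 302.2 and 351.2 in WT and 161.4, 225.4, 160.4 and 125.2 in Eμ-Myc. Here the inhibitor fell with the subunits it binds, by 1.11 on the log2 scale (SE 0.17, limma adjusted p = 0.00056).

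**Figure D2:**
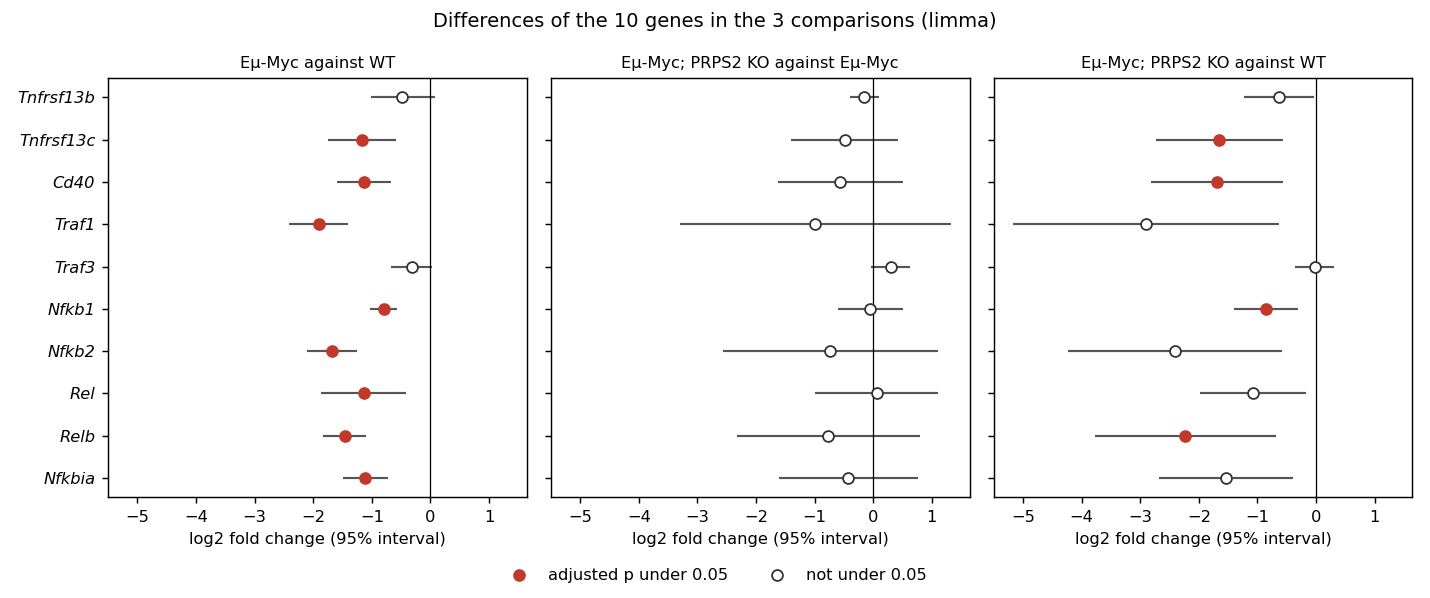
Fitted log2 fold change of each of the 10 genes (points) with its 95% interval (bars) in the 3 comparisons, filled where the adjusted p was under 0.05. In Eμ-Myc against WT 8 points are filled and lie left of 0, in PRPS2 KO against Eμ-Myc none is filled and the intervals are wide, and in PRPS2 KO against WT 4 are filled.

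Markers of other cells and of B cell stage moved in the same comparison. The 5 mature B markers in the files were all called lower. They summed to 3149 to 4742 in WT and to 858 to 1415 in Eμ-Myc. The 7 immature B markers summed to 310.4 to 729.3 and to 1281 to 1949, with 5 of 7 called higher. That sum was nearly all Vpreb3 (284.5 to 706 in WT and 1216 to 1898 in Eμ-Myc). Of those called higher, Vpreb1, Igll1 and Rag2 had WT means of only 0.774, 0.605 and 0.335 units. The 8 T cell markers summed to 651 to 3343 in WT and to 149.6 to 210.3 in Eμ-Myc, and all 8 were called lower. Markers of NK cells summed to 265 to 1199 in WT and 70.3 to 206.1 in Eμ-Myc, and those of dendritic cells to 114.1 to 176.1 and 52.6 to 79.7. The sums of myeloid, plasma cell, erythroid and platelet markers overlapped between these groups. No marker of any of these lists was at 0 in any library. The part of stage and of other cells in the fall of the 10 genes was not tested. When libraries were scaled by the B lineage markers instead, also chosen after seeing the data, 7 of the 10 were called lower, among 27.5% of all genes called in either direction, and Nfkb1 was at -0.73 (adjusted p = 0.0531, the highest over its alternatives, the lowest being 6e-06).

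**Figure D3:**
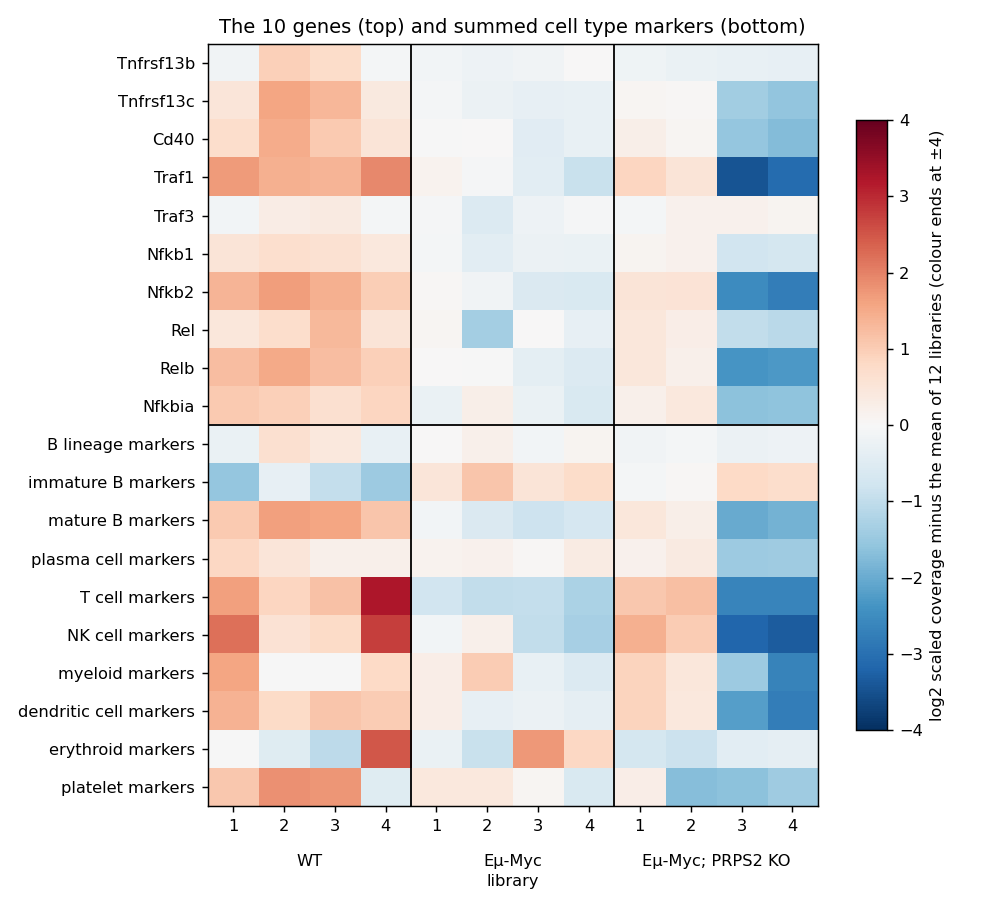
Scaled coverage (log2, minus the mean of the 12 libraries) of the 10 genes in the upper block and of summed cell type markers in the lower block, with 1 column per library. Most of the 10 genes, the mature B markers and the T cell markers are low in PRPS2 KO libraries 3 and 4, where B lineage markers stay near their mean.

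Loss of PRPS2 on the Eμ-Myc background gave no call in any of the 10 genes. Of 12535 genes tested 1 was called (0.00798%), Prps2 itself. At an unadjusted p under 0.05 there were 120 genes (0.957%), and none of the 10 was among them. These intervals are wide, so the result does not show that levels were alike: for Traf1 the log2 difference of -0.99 had a 95% interval of -3.30 to 1.32, and for Nfkb2 it was -0.73 (-2.57 to 1.11). The narrowest intervals were those of Tnfrsf13b at -0.16 (-0.40 to 0.09) and Traf3 at 0.30 (-0.03 to 0.62).

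The spread came from the PRPS2 KO libraries, which fell into 2 pairs for most of these genes. Traf1 read 51.1 and 40.6 in libraries 1 and 2 and 2.1 and 2.9 in libraries 3 and 4, so its highest value was 24.2 times its lowest. Nfkb2 read 231.1 and 238.2 against 27.9 and 23.6, a ratio of 10.1 between the extremes. Relb read 111.3 and 93.7 against 15.3 and 15.9. For all 3 the Eμ-Myc values sat between the pairs. Within Eμ-Myc the corresponding ratios of highest to lowest library were 2.07, 1.56 and 1.50.

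The receptors of BAFF and CD40 followed the same order with smaller steps. Tnfrsf13c read 258.4, 248.5, 91.7 and 81.5 in PRPS2 KO libraries 1 to 4, and Cd40 read 253.6, 226.5, 73.1 and 64.6. Tnfrsf13b, at 233.5, 217.1, 211.6 and 205.6, had the smallest step of the 10 genes, with a ratio of 1.14 between highest and lowest, and libraries 2 to 4 lay below all Eμ-Myc libraries. Traf3 was nearly as even at 83.4, 100.3, 100.7 and 96.1, and was the only one of the 10 with libraries 3 and 4 above every Eμ-Myc library.

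Nfkb1 read 121.4, 125.5, 65.7 and 68.2, Rel read 24.2, 21.3, 8.7 and 8.2, and Nfkbia read 223.3, 261, 61.1 and 62.6. Libraries 1 and 2 lay above all Eμ-Myc libraries and libraries 3 and 4 below all of them in 6 of the 10 genes (Tnfrsf13c, Cd40, Traf1, Nfkb1, Nfkb2 and Relb). That order held for 13.4% of the 12535 genes tested, and the opposite order, which none of the 10 showed, for 2129 of them.

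The sum of mature B markers split the PRPS2 KO libraries in the same way, at 2051 and 1773 in libraries 1 and 2 and 372.9 and 404.5 in libraries 3 and 4. Fcer2a, which encodes CD23 of follicular B cells, read 1011 and 835.8 against 3.7 and 2.7, and Cr2, the complement receptor CD21, read 66 and 61.9 against 0.1 and 0.3. T cell markers summed to 753 and 832 against 56.3 and 57.4, with 4 of the 8 below 1 unit in both of the latter, and myeloid markers to 15327 and 11424 against 3005 and 1310. NK cell markers summed to 474 and 355.9 against 19.3 and 17.2, and dendritic cell markers to 124.6 and 89.6 against 14 and 9.5. Plasma cell markers summed to 457.6 and 522.4 against 146.2 and 150.9. Of these, Jchain read 183.6 and 233.9 against 2 and 2.4. Sdc1 alone in that list was higher in libraries 3 and 4 (6.8 and 7.8 against 12.3 and 10.1). The sum of immature B markers was higher in libraries 3 and 4, at 859.4 and 939.6 against 1602 and 1476, and was nearly all Vpreb3 (802.4 and 879 against 1553 and 1428). Rag1, of the recombinase, was lower there (22 and 27.6 against 8.4 and 10.2) and Rag2 was level (5 and 6.7 against 5.9 and 5.5). B lineage markers lay between 6331 and 7026 in all 4. Myc itself read 1099 and 1718.7 in libraries 1 and 2 and 3017.7 and 3282.5 in libraries 3 and 4. The part of these in the split of the 10 genes was not tested.

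Which pair was kept decided the outcome. Without PRPS2 KO libraries 1 and 2, 7 of the 10 genes were called lower than Eμ-Myc by limma, among 28.7% of all genes called in either direction, with Traf1 at -2.96 (adjusted p = 0.00119), Nfkb2 at -2.32 (adjusted p = 0.000778) and Relb at -2.11 (adjusted p = 0.000717). Without libraries 3 and 4 none was called, 4.20% of all genes were, and the same 3 genes were fitted higher, at 0.99, 0.85 and 0.56. Over the alternatives tried, the adjusted p ran from 0.0011 to 1 for Traf1, from 0.000778 to 1 for Nfkb2 and from 0.000717 to 1 for Relb. Weighting each library by its own fit gave libraries 3 and 4 weights of 3.20 and 7.78 and libraries 1 and 2 weights of 0.0816 and 0.129, and then all 10 genes were called, Traf3 higher and 9 lower, beside 59.5% of all genes. The omissions of library pairs were chosen after the libraries had been seen to differ.

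Against WT, the PRPS2 KO group was lower in 4 of the 10 genes by limma and higher in none. Of all 12692 genes tested 29.2% were called, and 9.52% were called lower. Those called were Relb at -2.23 (SE 0.67, adjusted p = 0.0423), Cd40 at -1.69 (SE 0.49, adjusted p = 0.0388), Tnfrsf13c at -1.65 (SE 0.47, adjusted p = 0.0374) and Nfkb1 at -0.85 (SE 0.24, adjusted p = 0.0365). Traf1 and Nfkb2 had larger fitted differences, -2.90 and -2.41, that did not pass (limma adjusted p = 0.0563 and 0.0525), as did Nfkbia (-1.54, adjusted p = 0.0502), Rel (-1.08, adjusted p = 0.0665) and Tnfrsf13b (-0.63, adjusted p = 0.0855). In 9 of the 10, every PRPS2 KO library lay below every WT library, against 14.8% of all genes tested. In 2 of the 9 the margin was very small: Rel read 24.2 in PRPS2 KO library 1 and 24.4 in WT library 1, and Tnfrsf13b 233.5 and 234.3. Traf3 alone overlapped, with a log2 difference of -0.02 (95% interval -0.36 to 0.31).

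The 4 calls were not stable to the choice of libraries. None was called without any single WT library or without PRPS2 KO library 3 or 4, where 4.78% to 10% of all genes were called. Without PRPS2 KO library 1 or 2, 8 of the 10 were called, beside 53.1% and 33.1% of all genes. Without both, 8 were called, beside 70.1%, among them Relb at -3.57 (adjusted p = 9.05e-06), Cd40 at -2.59 (adjusted p = 0.000184), Tnfrsf13c at -2.42 (adjusted p = 0.00102) and Nfkb1 at -1.29 (adjusted p = 4.81e-05). Without libraries 3 and 4 together 3 were called, beside 10.7% of all genes (Traf1 at -0.93, adjusted p = 0.0274, Nfkb2 at -0.83, adjusted p = 0.0346, and Relb at -0.90, adjusted p = 0.0195), so these 3 were also lower than WT in the pair in which they were high. There Tnfrsf13c was at -0.88 (adjusted p = 0.19), Cd40 at -0.79 (adjusted p = 0.109) and Nfkb1 at -0.41 (adjusted p = 0.0634). Over all alternatives the limma adjusted p of Traf1, Nfkb2 and Relb reached 0.236, 0.187 and 0.171. It was lowest at 4.07e-06, 3.03e-06 and 1.57e-06 for these 3. With the replicate number as a block 2 of the 10 were called, beside 14.7% of all genes. This comparison shares its WT libraries with that of Eμ-Myc against WT and its PRPS2 KO libraries with that of PRPS2 KO against Eμ-Myc, and those 2 share the Eμ-Myc libraries, so the 3 sets of values are not independent.

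The wider pathway was read through a list of 60 further genes, of which 59 could be tested in Eμ-Myc against WT. Of these 33 were called lower and 4 higher (62.7% called, beside 55.2% of all genes), with a median log2 difference of -0.60. The count depended on the fit: with all 12 libraries in one fit 21 were called (35.6%, beside 43% of all genes), and with scaling by B lineage markers 2 were higher and 18 lower (33.9%, beside 27.5%). Among the ligands and receptors 6 of 11 fell and 1 rose, and among the adaptors 4 of 10 fell and 1 rose. Other subunits and inhibitors fell in 5 of 6, the exception being Nfkbib at 0.05 (adjusted p = 0.718). In the list of deubiquitinases and other brakes 4 of 7 fell (Tnfaip3, Tnip1, Tnip2 and Cyld) and 1 rose, Btrc, which acts in IκB degradation and is itself no brake. The target genes fell in 6 of 12 and rose in 1. Map3k14, which encodes NIK, fell by 1.11 on the log2 scale (limma adjusted p = 7.56e-05), Rela by 0.52 (adjusted p = 0.00559) and Tnfaip3, which encodes the deubiquitinase A20, by 1.72 (adjusted p = 0.00304). The WT values of Tnfaip3, 91.8, 67.1, 68.5 and 145.6 in libraries 1 to 4, were in the order of the T cell marker sum. The part of T cells in its fall was not tested. The call of Tnfaip3 was lost with all 12 libraries in one fit (adjusted p = 0.168) and that of Rela with B lineage scaling (adjusted p = 0.254), while Map3k14 was called under every alternative tried (highest adjusted p = 0.0364).

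**Figure D4:**
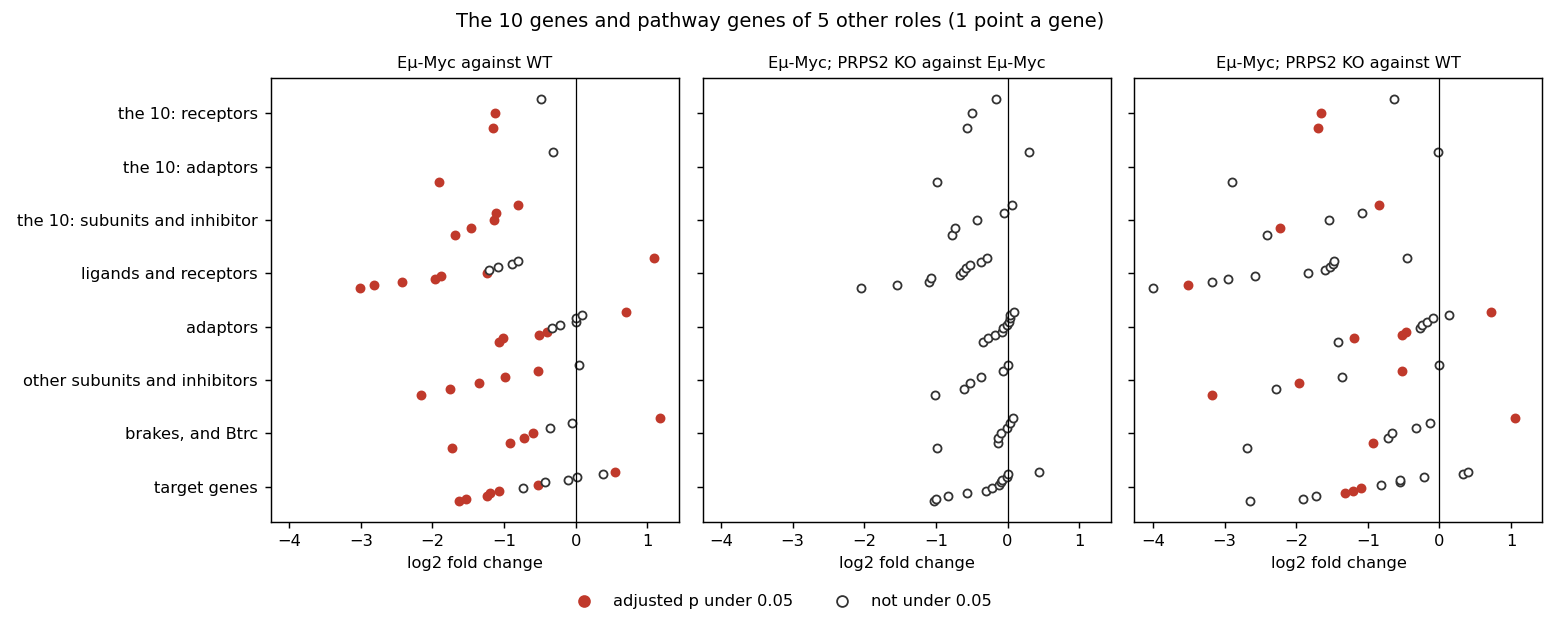
Log2 fold change of the 10 genes (upper 3 rows) and of other pathway genes in 5 roles (lower 5 rows) in the 3 comparisons, 1 point a gene, filled where the adjusted p was under 0.05. In Eμ-Myc against WT filled points lie mostly left of 0, and in PRPS2 KO against Eμ-Myc none is filled.

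Among well covered pathway genes the largest falls were mostly in ligands and receptors of the TNF family. Cd27, a costimulatory receptor that T cells also carry, read 142.5, 65.2, 85.5 and 382.8 in WT and 22.4, 16.5, 20.7 and 15.2 in Eμ-Myc (-2.81, limma adjusted p = 0.00122). Its WT libraries were in the same order as the T cell marker sum of 1127, 651, 811.4 and 3343. The log2 difference of Cd27 ran from -3.14 to -2.29 with 1 library left out, and its smallest fall over all alternatives was -1.99. Lta, which encodes lymphotoxin alpha, read 31.7, 49.8, 41.3 and 40.9 against 9.5, 8.7, 6.7 and 4.7 (-2.42, adjusted p = 2.7e-05). Ltb, its membrane partner, read 731.2, 1181, 915.7 and 908.1 against 268.1, 316.6, 185.6 and 200.2 (-1.96, adjusted p = 4.42e-05). Both lymphotoxin genes separated by genotype with no overlap. Bcl3, a nuclear IκB protein that binds p50 and p52, fell by 2.16 on the log2 scale (limma adjusted p = 0.000203). Tnf was at -1.88 (adjusted p = 6.17e-05). Ikbke, a kinase related to the IKK complex, was at -1.90 (adjusted p = 0.0122), its WT values of 36.7, 14.7, 20.4 and 93.7 also in the order of the T cell marker sum, and at -1.39 without WT library 4 and -1.03 without WT libraries 1 and 4. Cd40lg, the ligand of CD40 and a T cell gene, had a larger difference of -3.01 (limma adjusted p = 0.00704) at lower coverage. That difference ran from -3.44 to -2.26 with 1 library left out. With all 12 libraries in one fit the calls of Ikbke (limma adjusted p = 0.0547), Lta (0.057), Bcl3 (0.0657), Cd27 (0.0744), Tnf (0.0914) and Ltb (0.206) were lost, and B lineage scaling lost those of Cd40lg (0.0676) and Ikbke (0.119).

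In Eμ-Myc 4 pathway genes rose. Btrc, the substrate receptor of the ubiquitin ligase that marks IκB proteins, read 75.7, 121.8, 105.7 and 97.7 in WT and 211.7, 229.1, 229.8 and 227.9 in Eμ-Myc (1.18, SE 0.14, limma adjusted p = 0.000104). It was the largest fitted rise in the list at the main settings and, unlike the other 6 genes listed with it, is no brake on the route. Traf4 rose by 0.70 (limma adjusted p = 0.00374) and Gadd45b by 0.55 (adjusted p = 0.015). Tnfrsf17, which encodes BCMA of plasma cells, rose by 1.10 (limma adjusted p = 0.00344) from very low levels of 1.2 to 2.3 in WT to 3.6 to 5.7 in Eμ-Myc. Over all alternatives Tnfrsf17 reached 1.39, above the highest value of Btrc, 1.28. Btrc kept its call under every alternative tried (highest adjusted p = 0.00168). The others did not: Tnfrsf17 lost its call with all 12 libraries in one fit (adjusted p = 0.118), Traf4 and Gadd45b with B lineage scaling (adjusted p = 0.0634 and 0.11), and Gadd45b also with scaling by summed coverage (0.37, adjusted p = 0.0524).

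In PRPS2 KO against Eμ-Myc none of the 58 pathway genes tested was called by limma, and 1 had an unadjusted p under 0.05. As for the 10 genes, the outcome turned on the library pairs: without PRPS2 KO libraries 1 and 2, 30 of the 58 were called, all lower, beside 28.7% of all genes, and without libraries 3 and 4, 3 were called, all higher, beside 4.20%. With library weights 2 were called higher and 36 lower, beside 59.5% of all genes. The gene with the unadjusted p under 0.05 was Tnfrsf17, at 3.4, 3.1, 0.3 and 0.1 in PRPS2 KO libraries (-1.55, 95% interval -2.99 to -0.10, limma adjusted p = 1). Ltb read 443.7, 427, 7.9 and 6.3 (-2.05, 95% interval -5.40 to 1.30) and Traf5, an adaptor of CD27 and CD40, 69.5, 72.4, 47.9 and 50.2 (-0.27, 95% interval -0.69 to 0.14). Without libraries 1 and 2 all 3 were called lower, Tnfrsf17 at -2.74 (limma adjusted p = 0.00105), Ltb at -4.97 (adjusted p = 0.000141) and Traf5 at -0.54 (adjusted p = 0.0325). Without libraries 3 and 4 none of the 3 was called, at -0.35, 0.88 and -0.01, and the lowest adjusted p was 0.0559, that of Ltb. The order seen in 6 of the 10 genes, libraries 1 and 2 above and 3 and 4 below all Eμ-Myc libraries, was found in 25 of the 58 (43.1%), beside 13.4% of all genes, and the opposite order in 1. Against WT, 16 of 59 were called (27.1%, beside 29.2% of all genes), of which Traf4 and Btrc were higher and 14 lower, the latter including Bcl3 (-3.17, adjusted p = 0.0486). That count of 16 was 0 to 3 without any single WT library, 1 without PRPS2 KO library 3 or 4, and 33 and 27 without library 1 or 2. It was 47 without libraries 1 and 2 together and 9 without libraries 3 and 4, beside 70.1% and 10.7% of all genes. The log2 difference of Bcl3 ran from -3.84 to -2.39 with 1 library left out, and was -5.18 without PRPS2 KO libraries 1 and 2 and -1.15 without libraries 3 and 4.

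Across the 12 libraries the 10 genes were not one block. The likeness of a pair was measured as the root mean square difference of their centred log2 values, where 0 is an identical pattern. Tnfrsf13c and Cd40 were the closest pair at 0.16, and Nfkb2 and Relb came next at 0.20, while Tnfrsf13b lay at 0.60 from Tnfrsf13c and 0.68 from Cd40, farther than from Traf3 (0.33) or Nfkb1 (0.36). The closest pairs were also first and second in likeness without either pair of PRPS2 KO libraries, at 0.15 to 0.17 and 0.15 to 0.18. The distances of Tnfrsf13b depended on those libraries: without libraries 3 and 4 they were 0.32 to Tnfrsf13c, 0.35 to Cd40, 0.29 to Traf3 and 0.33 to Nfkb1. Among 9649 genes the one nearest to Tnfrsf13c was H2-Ob, an MHC class II chaperone subunit of B cells, at 0.15. For Cd40 the nearest were Bend5 at 0.11 and Lmo2, a transcriptional cofactor, at 0.13, and for Nfkb1 they were Smap2 at 0.07 and Plekhm1 at 0.08. H2-Ob read 374.1 to 633.6 in WT, 198.2 to 265.3 in Eμ-Myc, 313.3 and 271.6 in PRPS2 KO libraries 1 and 2 and 95.5 and 104.2 in libraries 3 and 4. Without PRPS2 KO libraries 3 and 4 other genes came nearer, and H2-Ob ranked 6 for Tnfrsf13c, Bend5 4 for Cd40 and Smap2 4 for Nfkb1, while each of these ranked 1 without libraries 1 and 2. These distances describe 12 libraries that share their group structure.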

How the data were processed

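Per the labels' protocols, spleen B lymphocytes came from mice aged 6 weeks, and a directional kit was used on their polyadenylated RNA. The deposited files hold 1 coverage signal per gene symbol and library, with 1 decimal, for 24982 symbols. The submitters' processing notes name DESeq, R 4.3.3 and the build mm10 without a role. The aligner, annotation and use of strand are not given in the sources used here. The signal is not whole reads (91.6% of values above 0 are not whole), so no count model was used and depth in reads is unknown. Summed coverage was 1277306 to 1885769 per library.

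Libraries were scaled by a trimmed mean of log ratios (30% of ratios and 5% of means trimmed at each end), giving factors of 0.8875 to 1.274, and the figures were drawn with matplotlib 3.10.9. limma 3.58.1 in R 4.3.3 was fitted to log2(scaled coverage + 0.5) with trend and robust settings on the 8 libraries of each comparison, with two-sided p adjusted by Benjamini-Hochberg over all genes tested. Fold changes are on that scale and understate changes of low genes. The code was tested on simulated data. The labels call the libraries biological replicates without naming mice, so p weighs a difference of group means against the spread between libraries within groups.

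The 10 genes, the pathway list and the marker lists were chosen with earlier results of these data known. Named pathway genes were, among those called in Eμ-Myc against WT with non-overlapping groups and a mean of at least 8 units, the up to 6 largest rises and falls, plus the 3 smallest p in PRPS2 KO against Eμ-Myc. Likeness was ranked for Tnfrsf13c, Cd40 and Nfkb1. Map3k14, Rela, Tnfaip3, Nfkbib, Cd40lg, Tnip1, Tnip2, Cyld, Fcer2a, Cr2, Vpreb1, Vpreb3, Igll1, Rag1, Rag2, Jchain and Sdc1 were named after their values were seen. Ighd, a mature B marker, was not analysed here. A further role of the pathway list enters the totals and is not reported on its own here. Gene positions are those of GENCODE on GRCm38, the assembly of mm10. Replicate numbers were checked for pairing by correlating deviations from the group mean. In PRPS2 KO and Eμ-Myc the 4 same-numbered pairs gave 0.209 to 0.729, a reading from the values alone. Different-numbered pairs there ran from -0.74 to 0.695. PRPS2 KO library 2 was closer to Eμ-Myc library 1 (0.695) than to Eμ-Myc library 2 (0.209). These values do not show that the numbers pair the libraries. Same-numbered pairs of the other comparisons did not all correlate (lowest -0.112 and -0.467). The alternatives were another scaling, pseudocounts of 0.1 and 2, no filter or at least 10 units in every library, all 12 libraries in 1 fit, library weights, a replicate block and leaving out libraries.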

Additional observations from a re-analysis of the deposited data

Results flagged for a closer look

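The values that stood far from the other 3 libraries of their group, by Dixon's criterion, were 5 among 93 group and measure combinations checked. Chance alone marks about 1 in 20. None was a value of the 10 genes. Btrc in Eμ-Myc library 1 was at 212, with the nearest other library at 228. Traf4 in Eμ-Myc library 2 was at 49.1, with the nearest at 37.5. The summed dendritic cell markers were 79.7 in Eμ-Myc library 1, with the nearest at 57.2. The summed erythroid markers were 621 in WT library 4, with the nearest at 110. The summed platelet markers were 126 in PRPS2 KO library 1, with the nearest at 38.4. With groups of 4 split into pairs, as the PRPS2 KO libraries were, this criterion marks nothing.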

How the results depend on the processing

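Counts below are given as genes among the 10, pathway genes and all genes called by limma. In Eμ-Myc against WT one fit over all 12 libraries called 4 and 21 of the first and second set (Traf1, Nfkb2, Relb and Nfkbia were lost at adjusted p of 0.0592 to 0.0862), and scaling by B lineage markers called 20 pathway genes and 3457 genes in all. Scaling by summed coverage moved the median of all genes to -0.19 and the calls to 3057 higher and 4227 lower, beside 3870 and 3140. Leaving out 1 library gave 8 to 9, 35 to 39 and 5776 to 6854. The sign of Nfkbib, never called, turned with median-of-ratios scaling (-0.01), summed coverage (-0.13), library weights (-0.04), without WT libraries 1 and 4 (-0.06) and with 1 library left out (-0.01 to 0.12).

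In PRPS2 KO against Eμ-Myc library weights called 10, 38 and 7463, leaving out libraries 1 and 2 called 7, 30 and 3494, and leaving out libraries 3 and 4 called 3 pathway genes and 521 genes in all. Leaving out 1 library gave 0, 0 and 1 each time. Signs turned with library weights for Rel (-0.89), Btrc (0.20), Gadd45b (0.02) and Ikbke (-0.94), with B lineage scaling for Tnfrsf13b (0.05), Nfkb1 (0.16) and Btrc (0.08), and without libraries 1 and 2 for Rel (-0.62), Btrc (0.22), Gadd45b (0.03) and Ikbke (-1.05). Without libraries 3 and 4 they turned for Tnfrsf13c (0.29), Cd40 (0.34), Traf1 (0.99), Nfkb1 (0.39), Nfkb2 (0.85), Relb (0.56), Nfkbia (0.55), Traf4 (-0.10), Cd27 (2.28), Lta (1.11), Bcl3 (1.00), Ltb (0.88) and Tnf (0.91).

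In PRPS2 KO against WT no filter called 8 pathway genes, one fit over 12 libraries 9, 29 and 5973, library weights 9, 50 and 10507, and B lineage scaling 2, 2 and 2130. Leaving out PRPS2 KO libraries 1 and 2 called 8, 47 and 8616, leaving out libraries 3 and 4 called 9 pathway genes and 1330 genes in all, and leaving out WT libraries 1 and 4 called 0, 0 and 4. Leaving out 1 library gave 0 to 8, 0 to 33 and 600 to 6631. Signs turned with B lineage scaling for Traf3 (0.26) and Traf5 (0.01), without PRPS2 KO libraries 1 and 2 for Traf3 (0.03), and without libraries 3 and 4 for Tnfrsf17 (0.75).

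The replicate block called 2, 5 and 1869 in PRPS2 KO against WT and 8, 38 and 7183 in Eμ-Myc against WT. No comparison showed that its numbers pair the libraries. In PRPS2 KO against Eμ-Myc the block called 0, 0 and 1, so it changed no call there. In that comparison 4 of 8 libraries were closest to their own number. The cause of these changes was not tested, except that dropping libraries leaves fewer samples. Leaving out 1 library at a time, signs turned in PRPS2 KO against Eμ-Myc for Nfkb1 (range -0.20 to 0.10), Rel (-0.25 to 0.31), Btrc (-0.26 to 0.01), Traf4 (-0.04 to 0.11), Ikbke (-0.15 to 0.84) and Cd27 (-1.30 to 0.66), and in PRPS2 KO against WT for Traf3 (-0.10 to 0.06) and Tnfrsf17 (-0.86 to 0.02). Requiring 10 units in every library removes low genes such as Rel and Traf1 from some tests. Read depth is unknown, so low values such as those of Rel and of Traf1 in PRPS2 KO libraries 3 and 4 carry no counting interval.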
